A study of Rattus norvegicus with 8 samples.

Results

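The genes described here make, move and break down the inhibitory transmitter GABA: *Gad1*, *Gad2*, *Slc32a1*, *Slc6a11*, *Abat* and *Aldh5a1*. They were chosen by name for these roles, and they are 6 of the 22601 genes listed for rat hippocampus. All 6 were among the 15593 genes with a mean level high enough to be tested. RNA was sequenced from the hippocampus of 8 wild type Wistar rats, with 1 library per rat. The rats were purchased at 180 to 220 g, before treatment, and their age is not given in the sources used here. The study asked how gene expression differs in rats kindled with pentylenetetrazole (PTZ) and how it differs after Q808, an anticonvulsant compound, was given to kindled rats.

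The Con. group (n = 3) received saline injections and then the solvents of Q808. The PTZ group (n = 3) received 35 mg/kg PTZ, a convulsant that blocks GABA-A receptors, into the peritoneum every 48 h over 28 days, 14 injections in all, with 60 mg/kg on the last day, and then the same solvents. The Q808 group (n = 2) received the same course of PTZ, followed by 30 mg/kg Q808 by gavage each day for 28 days. PTZ and Q808 rats, but not Con. rats, were given a further low dose of PTZ on the day after the last treatment, shortly before the tissue was taken. The PTZ libraries therefore stand for kindled rats with a recent PTZ dose. The Q808 rats received the drug as well, and the study reported lower seizure scores and longer seizure latency in its Q808 group at this test. Recent seizures may thus differ between these groups along with the drug. The study had no group that received Q808 without PTZ.

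GABA is made from glutamate by glutamate decarboxylase, which exists in neurons in a pair of forms, GAD67 and GAD65. It is loaded into synaptic vesicles by the vesicular GABA transporter, and after release it is taken up by transporters in the plasma membrane of neurons and glia. GABA transaminase and succinic semialdehyde dehydrogenase then turn it into succinate, the route known as the GABA shunt. In the hippocampus the makers of GABA are mostly interneurons, which hold pyramidal and granule cells in check, and drugs that block GABA transaminase or GABA uptake are used against seizures.

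The stretches before the start of 4 of these genes are shown because 3 of them (*Gad1*, *Gad2* and *Slc32a1*) mark GABA neurons and moved together from library to library, while *Slc6a11* followed another course. Sequences are those of the RefSeq promoter table for rat build GRCr8, + strand, 5′ to 3′. They end at the base before the annotated gene start, and capitals mark CG pairs and, in *Gad1*, the letters TATAAA. They are chr3:75777202-75777259 for *Gad1*, of which 58 bases of the table's window lie before the gene start, chr17:89671468-89671717 for *Gad2*, chr3:167686995-167687244 for *Slc32a1* and chr4:148853307-148853556 for *Slc6a11*.
Gad1: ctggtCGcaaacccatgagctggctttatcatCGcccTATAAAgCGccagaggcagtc
Gad2: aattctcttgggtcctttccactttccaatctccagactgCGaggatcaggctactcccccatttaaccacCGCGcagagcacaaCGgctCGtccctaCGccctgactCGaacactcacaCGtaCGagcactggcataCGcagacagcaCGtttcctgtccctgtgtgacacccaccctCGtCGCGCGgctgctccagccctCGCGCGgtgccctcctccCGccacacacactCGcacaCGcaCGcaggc
Slc32a1: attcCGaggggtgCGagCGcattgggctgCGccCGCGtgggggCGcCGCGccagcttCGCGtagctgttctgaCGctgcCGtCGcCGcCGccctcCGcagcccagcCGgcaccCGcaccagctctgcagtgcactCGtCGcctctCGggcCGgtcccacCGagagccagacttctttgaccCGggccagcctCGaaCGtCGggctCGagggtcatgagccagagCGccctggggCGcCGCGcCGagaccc
Slc6a11: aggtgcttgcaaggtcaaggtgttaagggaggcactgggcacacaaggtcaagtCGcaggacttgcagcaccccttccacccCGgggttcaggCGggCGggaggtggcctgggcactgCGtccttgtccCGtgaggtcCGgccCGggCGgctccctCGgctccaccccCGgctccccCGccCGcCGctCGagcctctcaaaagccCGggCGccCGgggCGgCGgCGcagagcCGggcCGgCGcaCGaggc

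The table held a window for 5 of the 6 genes, all but *Abat*. G and C made up 55.2% of the *Gad1* stretch, 62% of that of *Gad2*, 73.6% in both *Slc32a1* and *Slc6a11*, and 61.6% in *Aldh5a1*, against a median of 51.2% over the 33469 windows of 250 bases in the table. The *Slc32a1* stretch held 34 CG pairs, that of *Slc6a11* 25 and that of *Gad2* 22. Both strands were searched for the TATA box TATAAA, the homeodomain core TAATTA, the cyclic AMP response element TGACGTCA, the E-box CACGTG and the Egr1 site GCGTGGGCG. A single match was found in the 5 genes. It was TATAAA in *Gad1*, beginning at position -21 from the gene start, and it overlapped no match of another motif. The last 58 bases held TATAAA in 3.58% of all windows, and the whole 250 bases in 12.9%.

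Levels are given as deposited in FPKM, in which sequenced fragments are divided by transcript length and library size, so that genes can be set side by side. The files hold no read counts. From the value of 1 fragment in genes with few reads, the depth of the other libraries was 0.854 to 1.187 times that of Con.-1. The error given for each value is the spread between libraries, 1 per rat. Differences between rats, in the tissue taken and in library making are not separated in it. Con.-3, PTZ-3 and Q808-1 stood apart from the hippocampus label. In these 3 libraries the mean of 8 markers of striatal projection neurons, which are GABA neurons of another brain region, lay between 5.78 and 7.12 on log2(FPKM + 0.1), against 1.48 to 2.38 in the other 5, and 8 of 8 markers were higher in all 3. Markers of dentate granule cells averaged 1.74 to 2.23 in those 3 libraries and 3.51 to 3.95 in the other 5. Of these markers 4 of 6 were lower in all 3. Those of pyramidal cells averaged 1.64 to 2.28 and 3.12 to 3.28, with 4 of 6 lower and 1 higher in all 3. Thalamic neuron markers averaged 2.16 to 2.54 and 1.40 to 1.88, with 3 of 6 higher and 1 lower in all 3. Among oligodendrocyte markers 8 of 8 were higher in the 3. Hippocampal interneuron markers, 9 of 10 with any value above 0, averaged 3.37 to 3.498 in the 3 and 3.12 to 3.82 in the 5. Of these 9, 0 were higher and 1 was lower in all 3. The tenth, *Npy*, was listed at 0 in all libraries. Each comparison is therefore also given without these libraries, and within them, where 1 library stands for each group.

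*Gad1* was the most abundant of the 6 genes in 8 of 8 libraries and *Slc6a11* the least abundant in 8 of 8. The mean levels over the 8 libraries were 107 FPKM for *Gad1*, 54.6 for *Abat*, 51.2 for *Gad2*, 45.5 for *Slc32a1*, 31.3 for *Aldh5a1* and 20.1 for *Slc6a11*. *Abat* exceeded *Gad2* in 5 of 8 libraries, *Gad2* exceeded *Slc32a1* in 6 and *Slc32a1* exceeded *Aldh5a1* in 7, so the middle of this order was not kept in every rat.

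The synthesis genes spread widely among the Con. rats, and the ranges of Con. and PTZ overlapped. *Gad1* (GeneID 24379) encodes GAD67, which makes most of the brain's GABA. It was at 69.2, 101 and 168 FPKM in Con.-1, Con.-2 and Con.-3, a mean of 112 ± 50.3 (SD, n = 3). In PTZ-1, PTZ-2 and PTZ-3 it was at 83.6, 117 and 139 FPKM (113 ± 28.1, SD, n = 3). It was at 98.6 and 83.8 FPKM in Q808-1 and Q808-2 (91.2 ± 10.5, SD, n = 2). The Con. libraries hold both the lowest and the highest value, and the 3 groups overlapped.

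*Gad2* (GeneID 24380) encodes GAD65, the form held at nerve terminals, where it supplies GABA for vesicles. Its Con. values were 25.3, 43.0 and 115 FPKM (61.2 ± 47.7, SD, n = 3), and the highest of these was again Con.-3. The PTZ values were 39.5, 51.7 and 60.7 FPKM (50.6 ± 10.7, SD, n = 3). The Q808 values were 40.2 and 34.3 FPKM (37.2 ± 4.12, SD, n = 2), both in the lower part of the PTZ range or below it. *Gad2* was at 0.366, 0.428 and 0.688 times *Gad1* in the Con. libraries, at 0.472, 0.441 and 0.436 times in the PTZ libraries, and at 0.407 and 0.410 times in the Q808 libraries. The Q808 ratios both lay below all 3 PTZ ratios. The difference was -0.14 on the log2 scale, and the two-sided exact permutation p was 0.1, the smallest that 2 against 3 libraries allow, or 0.9 after adjustment over 9 tests of such ratios.

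*Slc32a1* (GeneID 83612) encodes the vesicular GABA transporter, which fills synaptic vesicles with GABA and glycine. It was at 24.4, 31.6 and 100.3 FPKM in the Con. libraries (52.1 ± 41.9, SD, n = 3), at 32.6, 35.7 and 62.0 in the PTZ libraries (43.4 ± 16.2, SD, n = 3) and at 47.5 and 30.02 in the Q808 libraries (38.8 ± 12.4, SD, n = 2). The highest library of each group was the one with high striatum markers, and the groups overlapped. Relative to *Gad1* it lay between 0.305 and 0.598 over the 8 libraries, and the groups overlapped there too.

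*Slc6a11* (GeneID 79213) encodes GAT-3, the GABA transporter of astrocytes, and was the gene of the 6 that differed most with Q808. In Con.-1, Con.-2 and Con.-3 it was at 13.6, 20.8 and 16.7 FPKM (17.0 ± 3.602, SD, n = 3). In the PTZ libraries it was at 20.3, 17.8 and 15.1 FPKM (17.7 ± 2.62, SD, n = 3). In Q808-1 and Q808-2 it was at 35.7 and 21.1 FPKM (28.4 ± 10.3, SD, n = 2). Both Q808 values were above all 6 others, Q808-1 by a wide margin and Q808-2 only just above Con.-2.

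The enzymes of breakdown had overlapping values in all groups. *Abat* (GeneID 81632), GABA transaminase, was at 34.3, 47.4 and 92.4 FPKM in the Con. libraries (58.01 ± 30.5, SD, n = 3). The PTZ libraries were nearly equal, at 47.6, 46.9 and 47.6 FPKM (47.4 ± 0.385, SD, n = 3). Q808-1 was at 74.7 and Q808-2 at 46.1 FPKM (60.4 ± 20.3, SD, n = 2), on either side of the PTZ values. *Aldh5a1* (GeneID 291133), succinic semialdehyde dehydrogenase, was the steadiest of the 6, at 28.2, 31.4 and 37.7 FPKM in the Con. libraries, 29.7, 24.9 and 34.0 in the PTZ libraries and 36.2 and 28.6 in the Q808 libraries. Its group means were 32.4 ± 4.80 (SD, n = 3), 29.5 ± 4.53 (SD, n = 3) and 32.4 ± 5.36 (SD, n = 2) FPKM. The ratio of *Aldh5a1* to *Abat* lay between 0.408 in Con.-3 and 0.824 in Con.-1, and the other groups fell within that range.

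**Figure D1:**
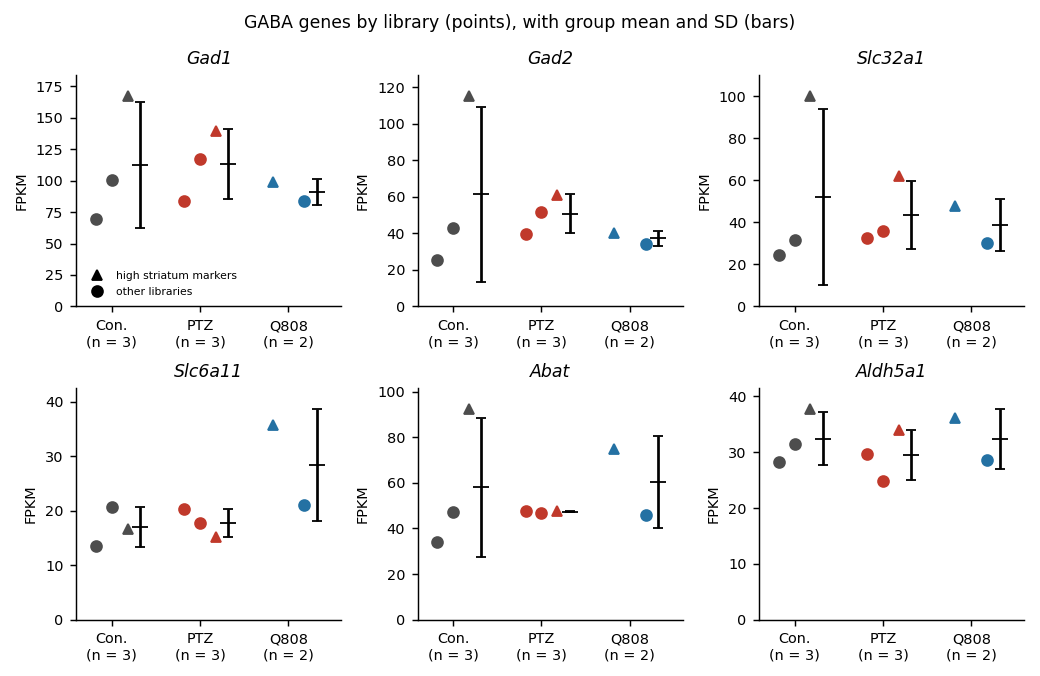
FPKM of each gene (y axis, from 0) in the Con., PTZ and Q808 groups (x axis), 1 point per library, with triangles for the 3 libraries with high striatum markers and bars for the group mean and SD. Con.-3 is the highest point for *Gad1*, *Gad2*, *Slc32a1*, *Abat* and *Aldh5a1*, and *Slc6a11* is highest in the 2 Q808 libraries.

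None of the GABA genes was called as changed after kindling. A gene was called when limma gave an unadjusted p-value under 0.05 and the change was over 1.5-fold on the log2(FPKM + 0.1) scale. In PTZ against Con. 0 of 6 were called, where 2.53% of all tested genes were (395 genes, or 616 with the replicate number of the labels as a block). The groups overlapped for all 6 genes, while 9.15% of all genes had groups that did not overlap. The largest difference was -0.17 in *Abat* (95% interval -0.95 to 0.62), followed by -0.14 in *Aldh5a1* (-0.53 to 0.26). *Gad1* differed by 0.08 (-0.72 to 0.87), *Slc6a11* by 0.07 (-0.39 to 0.54), *Gad2* by -0.01 (-1.21 to 1.20) and *Slc32a1* by -0.03 (-1.28 to 1.21), each as log2 of PTZ over Con. The intervals of *Gad2* and *Slc32a1* run from a 0.432-fold or lower to a 2.29-fold or higher level. Changes within that range, in either direction, were not excluded with these rats. The limma p-values lay between 0.447 and 0.988.

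For *Gad1*, *Gad2*, *Slc32a1*, *Slc6a11* and *Abat* the differences had opposite signs in the 2 sets of libraries. Without the 3 libraries with high striatum markers, *Gad2* was higher in the PTZ group by 0.45, *Slc32a1* by 0.29, *Gad1* by 0.25 and *Abat* by 0.23 on the log2 scale. Between PTZ-3 and Con.-3 the same genes were lower in PTZ-3, by -0.92 in *Gad2*, -0.69 in *Slc32a1*, -0.27 in *Gad1* and -0.96 in *Abat*. *Slc6a11* differed by 0.18 and -0.14 in the 2 sets, and *Aldh5a1* by -0.13 and -0.15. Leaving out Con.-3 alone moved the difference of *Gad2* from -0.01 to 0.59 and that of *Slc32a1* from -0.03 to 0.58, with the sign turned. In bulk RNA, fewer cells of a type and less RNA per cell cannot be told apart.

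Q808 against PTZ and Q808 against Con. each called 0 of 6 genes, against 1.92% and 3.46% of all tested genes. Q808 against PTZ shares the PTZ libraries with the first comparison, and Q808 against Con. shares the libraries of both groups, so the 3 comparisons are not independent. *Slc6a11* was the only one of the 6 whose groups did not overlap, in both comparisons, where 15.6% and 20% of all genes had such groups (10.6% and 13.3% with Q808 higher). Its difference from PTZ was 0.64 (SE 0.27, 95% interval -0.02 to 1.29, limma with Benjamini-Hochberg adjusted p = 0.952), a 1.55-fold level. Its difference from Con. was 0.71 (SE 0.29, -0.02 to 1.44, limma adjusted p = 0.901), a 1.63-fold level. The two-sided exact permutation p was 0.1 against PTZ, the smallest possible, where limma's unadjusted p = 0.0556, and the exact p was 0.2 against Con., where it was 0.0557. Neither passed the threshold, and both rest on Q808-1, since without it the differences were 0.26 and 0.33. Without the 3 libraries with high striatum markers they were 0.15 and 0.33, and within those 3 they were 1.24 and 1.09. With all 3 groups in a shared limma fit the gene was called in both comparisons, as were 404 and 471 of all tested genes.

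The synthesis genes and the vesicular transporter had lower means with Q808, within the spread between libraries. *Gad2* differed from PTZ by -0.42 (-0.97 to 0.12, limma adjusted p = 0.952), *Gad1* by -0.29 (-0.90 to 0.32) and *Slc32a1* by -0.14 (-0.97 to 0.69). The *Gad1*, *Gad2* and *Slc32a1* differences kept their sign without the 3 libraries, at -0.24, -0.39 and -0.18. Between Q808-1 and PTZ-3 they were -0.50, -0.59 and -0.38. Against Con. the differences were -0.21 in *Gad1*, -0.43 in *Gad2* and -0.17 in *Slc32a1*, without the 3 libraries they were 0.01, 0.06 and 0.11, and between Q808-1 and Con.-3 they were -0.77, -1.52 and -1.08. *Abat* differed by 0.31 from PTZ (-0.25 to 0.87) and by 0.14 from Con. (-1.01 to 1.29). Between Q808-1 and PTZ-3 *Abat* was higher by 0.65, and it differed by -0.04 in the other libraries. Against Con. *Abat* differed by 0.19 without the 3 libraries and by -0.31 between Q808-1 and Con.-3. *Aldh5a1* differed by 0.13 (-0.37 to 0.63) from PTZ and by -0.00131 (-0.48 to 0.48) from Con. Without the 3 libraries it differed by 0.07 and -0.06, and within them by 0.09 and -0.06.

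**Figure D2:**
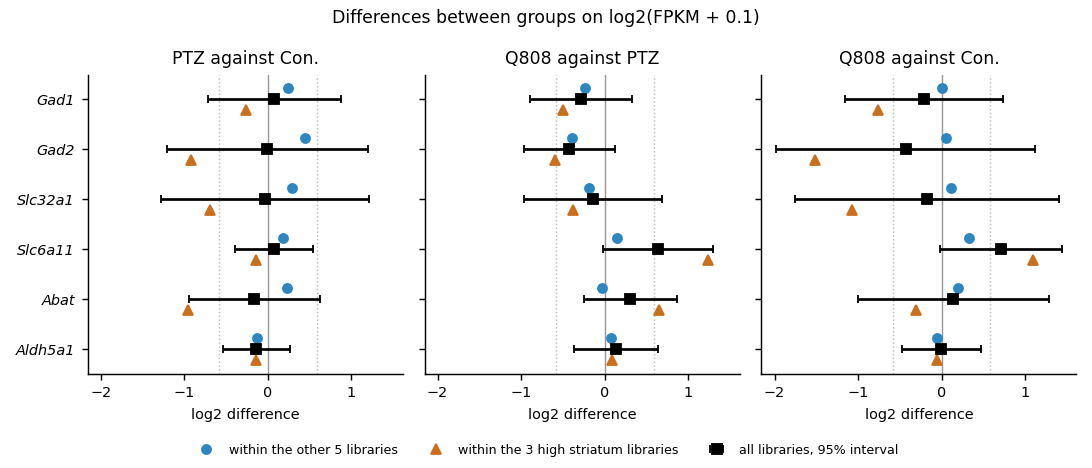
log2 difference of each gene (x axis) in the 3 comparisons, as black squares with 95% intervals over all libraries, blue circles within the 5 libraries with low striatum markers and orange triangles within the 3 with high ones. Dotted lines mark 1.5-fold. Every black interval crosses 0, and circles and triangles of *Gad2* lie on opposite sides of 0 in PTZ against Con. (0.45 and -0.92).

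For *Gad1*, *Gad2*, *Slc32a1*, *Abat* and *Aldh5a1*, but not *Slc6a11*, the SD over the 8 libraries exceeded every difference of group means. An SD of single libraries and a difference of means are unlike measures. The SD of log2(FPKM + 0.1) over all libraries was 0.67 for *Slc32a1*, 0.65 for *Gad2*, 0.45 for *Abat*, 0.42 for *Slc6a11* and *Gad1*, and 0.20 for *Aldh5a1*, against 0.34 for the median gene tested. The level in the 3 libraries with high striatum markers exceeded that in the other 5 by 1.12 for *Slc32a1*, 0.79 for *Gad2*, 0.64 for *Abat*, 0.56 for *Gad1*, 0.33 for *Aldh5a1* and 0.17 for *Slc6a11* on the log2 scale, and by 0.10 for the median gene. *Slc32a1*, *Abat* and *Aldh5a1* were higher in each of those 3 than in each of the other 5, as were 15.2% of all genes tested. These sets were made from measured markers, so the values are given as a description. How far tissue makeup sets the levels of these genes was not tested.

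**Figure D3:**
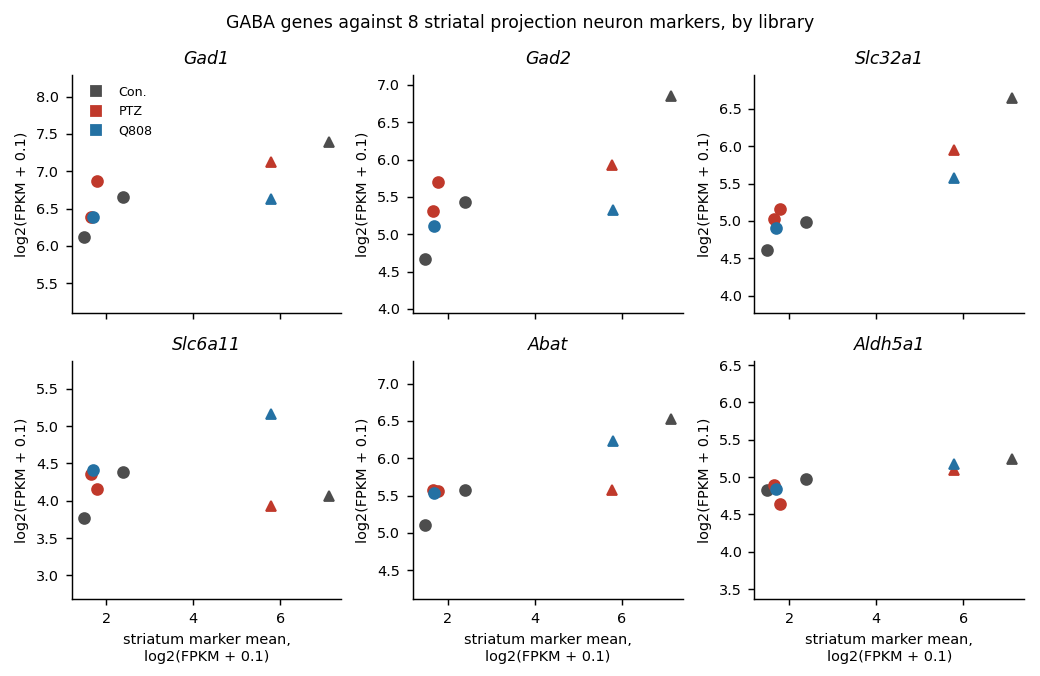
Level of each gene as log2(FPKM + 0.1) (y axis) against the mean of the 8 striatum markers on the same scale (x axis), 1 point per library, coloured by group, with triangles for the 3 libraries with high markers. *Slc32a1*, *Abat* and *Aldh5a1* are higher in each triangle than in each circle, while the triangles of *Slc6a11* hold the highest value (Q808-1) and values among the circles.

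The profiles of the GABA neuron genes were close to each other, though other genes lay nearer to each of them. Likeness was measured as the root mean square difference of levels standardized per gene over the 8 libraries, among 12563 genes with a mean of at least 1 FPKM, and is given as a description. *Gad2* was the gene 5th nearest to *Gad1* (0.273 SD units) and *Slc32a1* the 32nd (0.414), while *Abat* ranked 677th, *Aldh5a1* 1385th and *Slc6a11* 7939th. Counted from *Gad2*, *Gad1* ranked 10th and *Slc32a1* 41st. Counted from *Slc32a1*, *Gad2* ranked 122nd and *Gad1* 175th. Nearest to *Gad1* were *C8h3orf62* (0.181), *Septin11* (0.228) and *Dhx38* (0.254), and nearest to *Gad2* were *Dhx38* (0.117), *Syt10* (0.124) and *Fbxo42* (0.188). *Slc32a1* was nearest to *Galnt13* (0.150), *Pde2a* (0.158) and *Cobl* (0.159). Genes near *Abat* included *Srgap1* (0.225) and *Phactr1* (0.232). *Aldh5a1* was nearest to *Cbx6* (0.249), *Rcbtb1* (0.264) and *Inpp5e* (0.268), and *Slc6a11* to *Armh4* (0.286), *Hook3* (0.367) and *Nwd1* (0.376). The points behind each value are the same 8 libraries, so Con.-3 enters all of them.

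*Slc6a11* was set beside the markers of astrocytes, the cells that carry its protein. The mean of 8 astrocyte markers was 5.66 to 5.97 in the Con. libraries, 5.98 to 6.15 in the PTZ libraries and 6.42 and 5.98 in Q808-1 and Q808-2. Q808-1 had the highest *Slc6a11* and the highest astrocyte list of all 8 libraries. It also had the highest lists of oligodendrocytes (9.23), microglia (4.58), endothelial cells (4.88) and thalamic neurons (2.54). Q808-2 had a thalamic mean of 1.88, the highest outside the 3 libraries with high striatum markers. The level of *Slc6a11* minus that of the list was -2.09, -1.59 and -1.59 in Con., -1.80, -1.82 and -2.06 in PTZ, and -1.26 and -1.57 in Q808, on the log2 scale. The Q808 values remained the highest 2 of the 8, with Q808-2 close to Con.-2 and Con.-3. The part of astrocyte content in the difference was not tested further.

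In the lists of genes around GABA metabolism, 36 genes in all, few were called. They cover other GABA transporters, glutamate and glutamine supply, the cofactor pyridoxal phosphate, steps beside the GABA shunt, GABA from putrescine, transcription factors of GABA neurons and, for contrast, vesicular glutamate transporters. After kindling (PTZ against Con.) 0 rose and 1 fell, with Q808 against PTZ 2 rose and 0 fell, and with Q808 against Con. 0 of 36 were called. That is 2.78%, 5.56% and 0% of the 36 genes, beside 2.53%, 1.92% and 3.46% of all tested genes, and the first share is near that of all genes. The gene that fell was *Slc17a8*, a vesicular glutamate transporter also found in some interneurons. It was at 2.55, 2.57 and 3.95 FPKM in Con. and 1.74, 1.82 and 1.43 in PTZ, a difference of -0.80 (limma adjusted p = 0.999), with all PTZ values below all Con. values. Without Con.-3, without PTZ-1 or without the 3 libraries with high striatum markers it was not called (-0.60, -0.84 and -0.50).

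Both other GABA transporters in the lists were called as higher in Q808 than in PTZ, and neither was called against Con. *Slc6a13* encodes GAT-2, found mainly outside neurons, in the coverings of the brain. It was at 1.02, 0.443 and 1.51 FPKM in PTZ and 1.99 and 5.44 in Q808, a difference of 1.77 (SE 0.63, limma adjusted p = 0.952). In Con. it was at 1.95, 1.87 and 1.37 FPKM, all below both Q808 values and overlapping with PTZ. Markers of choroid plexus epithelium were highest in Q808-2, as was *Slc6a13*, but not in Q808-1, where they lay within the PTZ range. The mean over the 5 of 6 with any value above 0 was 3.85, 4.19 and 1.04 in Con., 1.82, 1.40 and 2.39 in PTZ and 1.44 and 5.58 in Q808, with the sixth, *Otx2*, listed at 0 in all libraries, and *Ttr*, the most abundant of them, was at 6301 FPKM in Q808-2 and at 87.4 to 2495 in the other libraries. Without Q808-2 the difference of *Slc6a13* was 1.07 and was not called, and the part of choroid plexus tissue in it was not tested. *Slc6a12*, the betaine and GABA transporter, was near the floor, with means of 0.3003 FPKM in Q808 and 0.0556 in PTZ (difference 1.37, limma adjusted p = 0.952), and it was at 0.253, 0.0710 and 0.0283 FPKM in Con., overlapping with 0.194 and 0.406 in Q808. Its call was lost in 9 of 15 alternatives, among them pseudocounts of 1 (0.30) and 0.01 (2.73) and the fit without Q808-2 (0.98).

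**Figure D4:**
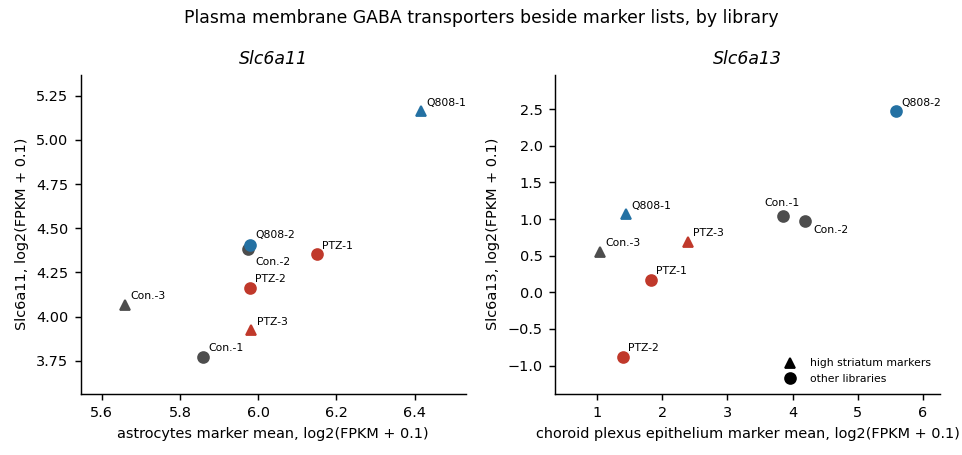
Left, *Slc6a11* against the mean of 8 astrocyte markers; right, *Slc6a13* against the mean of 5 choroid plexus markers, 1 point per library, all axes as log2(FPKM + 0.1), coloured by group as in the other plots and with triangles for the libraries with high striatum markers. Q808-1 is highest on both axes at left, with an astrocyte mean of 6.42, and Q808-2 at right, where its choroid plexus mean is 5.58.

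No gene of the other lists was called in any comparison. *Glul*, glutamine synthetase, was the most abundant gene of glutamate and glutamine supply, with a difference of 0.30 between PTZ and Con. and 0.13 between Q808 and PTZ. *Got1*, aspartate aminotransferase, led the steps beside the shunt (-0.07 and -0.32). *Sat1*, which acetylates polyamines, led the putrescine genes and was higher in PTZ than in Con. by 0.50 (limma adjusted p = 0.999), under the 1.5-fold limit.

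The wider pathways in the deposited KEGG annotation gave a like picture. GABAergic synapse holds 5 of the 6 genes, and of its 82 tested genes 0 were called between PTZ and Con., 2 between Q808 and PTZ and 1 between Q808 and Con. These are 0%, 2.44% and 1.22% of its genes, near or below the 2.53%, 1.92% and 3.46% over all genes. The called genes were *Slc6a13* again, *Gabra4*, a GABA-A receptor subunit with means of 20.6 FPKM in Q808 and 34.2 in PTZ (-0.72, SE 0.18, limma adjusted p = 0.952), and *Adcy4*, an adenylate cyclase (0.68 against Con., limma adjusted p = 0.901). *Gabra4* was called in all 16 alternative settings and library sets, from -0.84 to -0.61, whereas *Adcy4* lost its call in 11 of 16 (0.48 without the 3 libraries with high striatum markers). Butanoate metabolism, with 4 of the 6 genes, had 0 called of 23 in each comparison. Alanine, aspartate and glutamate metabolism, with 4 of the 6, had 1 of 31 called in PTZ against Con., *Aspa*, aspartoacylase of oligodendrocytes (0.79, limma adjusted p = 0.999), and 0 in the other comparisons. The median difference of the 6 GABA genes was -0.02, -0.00306 and -0.09 in the 3 comparisons, and that of all tested genes was -0.04, 0.10 and 0.04.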

How the data were processed

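Total RNA of rat hippocampus was sequenced from poly(A)-captured libraries, 1 library per rat, and groups came from the labels of the libraries. The deposited values are FPKM, which the authors obtained with Cufflinks from reads trimmed by Trimmomatic. The submitters' processing notes also name HISAT2, Bowtie2, SAMtools, StringTie, HTSeq and DESeq. The aligner used for these values and the genome build are not given in the sources used here. The GO and KEGG annotation in the files was used only for the KEGG pathways.

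Symbols were matched by GeneID to the RefSeq gene table of GRCr8 for 20633 of 22601 genes. Genes averaging 0.1 FPKM or more (15593) entered the tests, which used log2(FPKM + 0.1) in R 4.3.3 with limma 3.58.1 (empirical Bayes with a trend), each comparison fitted on its own 2 groups, with Benjamini-Hochberg adjustment over all tested genes. Fold changes on this scale understate those of low genes. A call needed limma's unadjusted p-value below 0.05 together with a change over 1.5-fold. The methods of the study state the fold limit on a log2 scale, and it was read here as a limit on the fold itself. Ratios of 2 genes within a library were set against each other by exact permutation, two-sided. Python 3.11.15 with pandas 2.3.3, scipy 1.17.1 and matplotlib 3.10.9 made summaries and plots. P-values measure the spread between these libraries, 1 per rat, which includes differences in the tissue taken.

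The 6 genes and the lists were chosen with earlier results of these data known, and the KEGG pathways were added after seeing the data. Genes named are the 6, called genes of the lists or else each list's most abundant gene, and the 3 nearest profiles of each, a few of which are not reported here. *Ttr* was named after its values were seen. Deviations from the group mean correlated at 0.309, 0.392 and 0.472 between same-numbered Con. and PTZ libraries over 12563 genes. Each value passed the limit of 0.1 set for this check. The number was used as a block in an alternative only, not in the main fit. These correlations cannot show that rats were paired. The libraries are of different rats, and the third pair are both libraries with high striatum markers. Deviations also cancel out within a group, so the third pair shapes the values of the other pairs. Alternatives were pseudocounts, filters, normalizations, all groups in one fit, no trend, the replicate block, a striatum covariate, and libraries left out. The limma step was run on simulated data whose spread was held below that of *Gad1*, *Gad2* and *Slc32a1* here. That run checks the code and does not show what change these rats could reveal.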

Additional observations from a re-analysis of the deposited data

How the results depend on the processing

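The 6 GABA genes in 3 comparisons gave 294 alternative values, of which 39 had the other sign, 7 were called and 248 kept their direction uncalled. With 2 or 3 rats a group, no counts and 3 libraries that differ in tissue markers, the intervals in PTZ against Con. are widest for *Gad2* and *Slc32a1*. The cause of the shifts below was not tested, beyond fewer libraries or genes where a setting says so.

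In PTZ against Con. the difference of *Gad2* became 0.0365 with median ratio scaling, 0.45 without the 3 libraries with high striatum markers and 0.15 with the striatum mean as a covariate. That of *Slc32a1* became 0.0105, 0.29 and 0.14 in the same settings, and that of *Abat* 0.23 without the 3 libraries. Without them the log2 ratio difference was 0.20 for *Gad2* to *Gad1*, 0.0482 for *Slc32a1* to *Gad1* and -0.36 for *Aldh5a1* to *Abat*. In Q808 against PTZ *Slc32a1* became 0.15 with the replicate block, and without the 3 libraries *Abat* became -0.0368 and the *Aldh5a1* to *Abat* ratio 0.11. In Q808 against Con. the block gave 0.12 for *Gad1*, 0.17 for *Gad2*, 0.44 for *Slc32a1* and 0.11 for *Aldh5a1*. Without the 3 libraries *Gad1* was at 0.00572, *Gad2* at 0.0558, *Slc32a1* at 0.11 and the *Gad2* to *Gad1* ratio at 0.0501, and quantile normalization gave 0.0173 for *Aldh5a1*.

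A Q808 group left with 1 library was assumed to vary like the other group, and ratios without the 3 libraries carry no test. With 1 library left out at a time, the log2 differences between PTZ and Con. ranged from -0.23 to 0.41 for *Gad1*, -0.50 to 0.59 for *Gad2*, -0.43 to 0.58 for *Slc32a1*, -0.0776 to 0.23 for *Slc6a11*, -0.48 to 0.23 for *Abat*, -0.24 to -0.0199 for *Aldh5a1*, and the ratios from -0.27 to 0.18 for *Gad2* to *Gad1*, -0.29 to 0.17 for *Slc32a1* to *Gad1*, -0.26 to 0.25 for *Aldh5a1* to *Abat*. Those between Q808 and PTZ ranged from -0.49 to -0.12 for *Gad1*, -0.59 to -0.28 for *Gad2*, -0.47 to 0.19 for *Slc32a1*, 0.26 to 1.01 for *Slc6a11*, -0.0403 to 0.66 for *Abat*, -0.0346 to 0.30 for *Aldh5a1*, and the ratios from -0.16 to -0.10 for *Gad2* to *Gad1*, -0.066 to 0.36 for *Slc32a1* to *Gad1*, -0.35 to 0.00575 for *Aldh5a1* to *Abat*. Those between Q808 and Con. ranged from -0.51 to 0.12 for *Gad1*, -0.92 to 0.17 for *Gad2*, -0.58 to 0.44 for *Slc32a1*, 0.33 to 1.09 for *Slc6a11*, -0.21 to 0.54 for *Abat*, -0.17 to 0.17 for *Aldh5a1*, and the ratios from -0.41 to 0.0457 for *Gad2* to *Gad1*, -0.18 to 0.32 for *Slc32a1* to *Gad1*, -0.43 to 0.0771 for *Aldh5a1* to *Abat*.

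The number of the 6 called was 1 in Q808 against PTZ and in Q808 against Con. with all 3 groups in one fit, 1 in Q808 against Con. with the striatum covariate (*Slc6a11* each time), and 0 to 2 and 0 to 1 with a library left out. The 2 were *Slc6a11* (1.01) and *Abat* (0.66) without Q808-2, and the 1 was *Slc6a11* without Con.-2 (0.86) or Q808-2 (1.09). In PTZ against Con. it was 0 in every setting run, where 219 to 1530 of all genes were called. Over all genes, the shared fit called 404 in Q808 against PTZ and 471 in Q808 against Con. In Q808 against Con. the covariate called 1151 of all genes, and the fit without Con.-2 called 279.

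Over all genes, 395 were called in PTZ against Con., and 219 with a pseudocount of 1, 616 with the replicate block, 626 with the covariate, 1530 without the 3 libraries and 249 to 1135 with a library left out (639 without Con.-3, 1135 without PTZ-3, 249 without PTZ-2). In Q808 against PTZ 300 were called, and 193 with a mean FPKM of at least 1, 1894 with the block, 594 with the covariate, 1444 without the 3 libraries and 132 to 1569 with a library left out (1569 without PTZ-3, 1301 without Q808-2, 132 without PTZ-1, 149 without PTZ-2). In Q808 against Con. 540 were called, and 340 with a pseudocount of 1, 1076 with the block, 1151 with the covariate and 279 to 1799 with a library left out (1799 without Q808-2, 279 without Con.-2, 351 without Q808-1). Quantile normalization turned the split from 212 higher and 88 lower to 130 and 142 in Q808 against PTZ, and from 479 and 61 to 283 and 158 in Q808 against Con. After adjustment 0, 0 and 1 genes passed 0.05, and 589, 341 and 667 had an unadjusted limma p under it. Without the 3 libraries 140 genes passed 0.05 after adjustment in PTZ against Con. (3047 unadjusted), none of them among the 6. The block changed no call of the 6 genes. Between Q808 and the other groups only 2 numbers are shared (correlations of deviations -0.439 and 0.416 with PTZ, -0.463 and 0.661 with Con.), so the libraries there share only a number. *Slc6a13* kept its call in 13 of 16 alternatives, *Slc6a12* in 6 of 15 (the filter at a mean FPKM of 1 gives it no value), *Slc17a8* in 13 of 17, *Aspa* in 17 of 17 and *Adcy4* in 5 of 16.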
